A study of Mus musculus with 2 samples.

Results

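The genes described here take part in the breakdown of haem and the recycling of its iron, a task of macrophages of the spleen. Several of them are also expressed by other cells. A list of 10 genes was looked up by symbol in the deposited table of 22791 genes, and all 10 were present. They are the transcription factor gene Spic, the scavenger receptor gene Cd163, the haem oxygenase gene Hmox1, the biliverdin reductase genes Blvra and Blvrb, the phagosomal metal transporter gene Slc11a1, the ferritin genes Fth1 and Ftl1, the iron exporter gene Slc40a1 and the transferrin gene Trf. Splenic RNA came from male C57BL/6J mice (9 to 11 weeks old, genotype label C57BL/6) that were fasted for 10 h and then received acetaminophen (APAP, 300 mg/kg i.p.) or 0.9% NaCl alone (ctrl). Spleens were taken after 30 h, when the liver injury caused by APAP passes into resolution, and the comparison asks which splenic transcripts differ at that time. RNA was pooled at equal shares from 5 ctrl and 11 APAP mice and each pool gave 1 library of 3′ mRNA ends (massive analysis of cDNA ends, MACE), so that no spread between mice can be given.

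Red pulp macrophages engulf aged and damaged erythrocytes and digest their haemoglobin. Haem oxygenase opens the haem ring and releases iron, carbon monoxide and biliverdin, which biliverdin reductases convert to bilirubin. The freed iron is stored in ferritin, a shell of heavy and light chains, or leaves the cell through ferroportin, the product of Slc40a1, and is carried to the bone marrow by transferrin. The spleen is the main site of this recycling. Ferritin and ferroportin are also controlled after transcription: when iron is scarce, iron regulatory proteins bind a hairpin near the 5′ end of their mRNA, the iron responsive element, and hold back translation. A count of mRNA ends does not record that step.

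That element could be read directly in the reference transcripts, and it is shown because it sets apart the 3 genes of iron storage and export within the list. A script searched GENCODE M21 transcripts (mm10) on the mRNA strand for a C, 5 bases, the loop CAGTGN and 5 further bases that pair with the first 5, G-T pairs allowed. The hairpin was found before the coding sequence of Fth1, Ftl1 and Slc40a1 and of none of the 7 other genes of the list, and in the 5′ untranslated region of 28 of 21899 protein-coding genes (0.128%). In the following lines the loop is in capitals and flanked by the stem. The Fth1 element lies on chromosome 19 (9982732 to 9982760, plus strand), that of Ftl1 on chromosome 7 (45459779 to 45459807, minus strand) and that of Slc40a1 on chromosome 1 (45925465 to 45925493, minus strand).
Fth1: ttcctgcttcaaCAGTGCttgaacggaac
Ftl1: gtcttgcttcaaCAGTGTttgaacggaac
Slc40a1: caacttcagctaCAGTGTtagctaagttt
The transferrin receptor gene Tfrc, the importing side of the same system, is known to carry such hairpins behind its coding sequence, where bound regulatory proteins stabilise the mRNA. The search found 4 of them in the 3′ untranslated region, of which the one on chromosome 16 from 32631219 to 32631247 reads as follows.
Tfrc: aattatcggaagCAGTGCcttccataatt

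The 10 genes are spread over the genome (mm10, GENCODE M21), with 2 on chromosome 1 and 2 on chromosome 7. Slc11a1 spans 74375195 to 74386062 on the plus strand of chromosome 1. On chromosome 7, Blvrb spans 27447978 to 27466144 (plus strand) and Ftl1 45457944 to 45459884 (minus strand). Blvra lies on chromosome 2 from 127070665 to 127097084 (plus strand) and Cd163 on chromosome 6 from 124304656 to 124330527 (plus strand). Trf occupies chromosome 9 from 103204001 to 103230444 (minus strand) and Spic chromosome 10 from 88674772 to 88685015 (minus strand). Fth1 is found on chromosome 19 from 9980598 to 9985098 (plus strand). The positions of Hmox1 and Slc40a1 stand with their values.

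The libraries held 2735788 counts (ctrl) and 2890947 counts (APAP). Values are given as raw counts, as CPM, the count scaled to a common library total, and as the ratio APAP/ctrl of counts divided by DESeq2 size factors, with a 95% interval of counting error. The intervals hold neither variation between mice nor between library preparations, and no p-value is given. Markers of B cells (2321 and 2065 CPM in sum for ctrl and APAP) and of red pulp macrophages (2967 and 4399 CPM) were present in both libraries, as the label spleen requires. All 10 pancreas markers were lower in APAP, and their summed share of a library was 4.07% for ctrl and 1.203% for APAP.

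Transcripts of haem breakdown and iron recycling were more abundant in the APAP library throughout. All 10 genes had a ratio above 1, as did 53.4% of the 12929 genes with at least 20 counts over both libraries. For 9 of them the interval lay above 1, against 9.13% of those genes. Since all 10 genes had at least 100 counts, the share among the 8116 genes of that depth, 11.5%, is the closer background. The 10 genes ran from 147 (Cd163) to 14898 counts (Fth1) over both libraries, and no background of matched depth was computed. The differences were of small size. The median ratio of the list was 1.36 against 1.02 for all genes with at least 20 counts, and the range was 1.16 to 1.70. An interval above 1 together with a ratio at least 25% above 1 was found for 6 of the 10 and for 7.08% of the genes with at least 20 counts. Among the 8116 genes with at least 100 counts it was found for 672. None of the 10 reached a 2-fold higher level, which 1.39% of the genes with at least 20 counts and 0.32% of those with at least 100 did. The summed share of the list was 0.399% for ctrl (0.391 to 0.406, Wilson interval) against 0.552% for APAP (0.543 to 0.560). The ratio of the summed counts divided by DESeq2 size factors, which is not the ratio of these shares, was 1.32 (1.28 to 1.35). Whether more cells of a type or more RNA per cell lay behind a difference cannot be told apart in whole spleen.

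**Figure D1:**
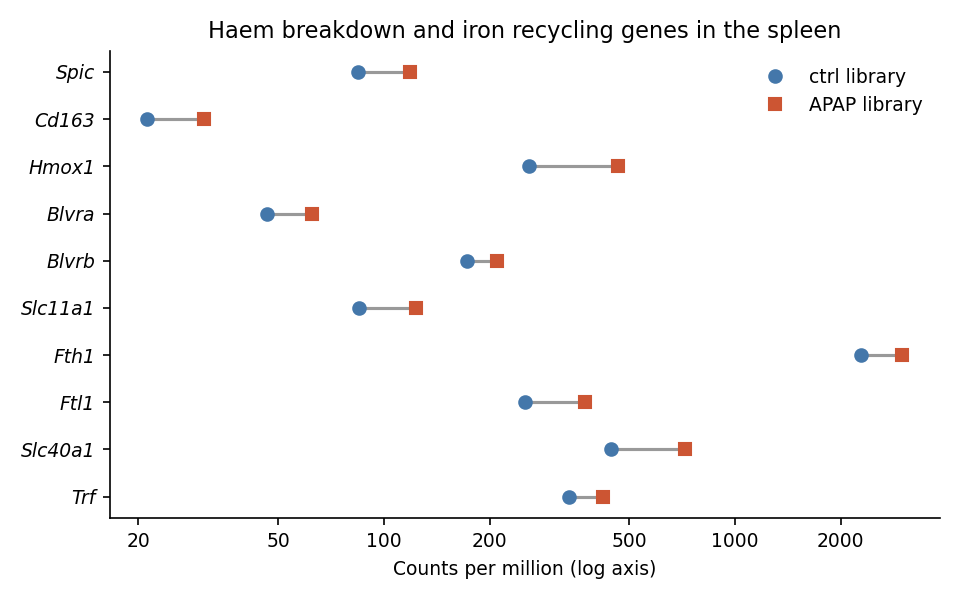
Level of each gene in the ctrl library (circles) and the APAP library (squares), in CPM on a log axis, with 1 pooled library per group and no error bars. Each square lies to the right of its circle, with the longest step for Hmox1 (259 to 465 CPM).

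Hmox1, which encodes the inducible haem oxygenase and thus the committed step of haem breakdown, had the highest ratio of the list. The ctrl library held 709 counts and the APAP library 1343 (259 and 465 CPM), which gave a ratio of 1.70 (1.56 to 1.87), and 96.0% of the genes with at least 20 counts had a lower ratio. Hmox2, the gene of the constitutive haem oxygenase, had 1 count in each library, so that nearly all haem oxygenase counts were those of Hmox1. Whether reads of Hmox2 went uncounted was not tested. Hmox1 lies on chromosome 8 from 75093621 to 75100589 (plus strand), and no exon of another gene overlaps it.

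The enzymes of the next step were higher by a smaller margin. Blvra, the gene of the reductase that makes the common bilirubin of adult animals, had 127 and 180 counts (46.4 and 62.3 CPM) and a ratio of 1.28 (1.01 to 1.61). With TMM factors this interval was 0.991 to 1.58 and reached below 1. Blvrb, whose product reduces other biliverdin isomers and flavins and is abundant in red cells, had 471 and 607 counts (172 and 210 CPM). Its ratio of 1.16 (1.03 to 1.31) was the lowest of the list. The number of Hmox1 counts per Blvrb count was 1.51 in ctrl and 2.21 in APAP, a shift of 1.47-fold (1.26 to 1.71) that does not depend on the scaling of the libraries. The corresponding shift of Hmox1 against Blvra was 1.34-fold (1.04 to 1.72). Blvra and Blvrb themselves did not differ detectably from each other (Blvra over Blvrb 1.10, 0.844 to 1.44). Ugt1a1, which encodes the enzyme that conjugates bilirubin in the liver, had no row in the table, and Por, the gene of the reductase that supplies haem oxygenase with electrons, had 161 and 197 counts (1.10, 0.890 to 1.36).

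The exporter gene Slc40a1 came next to Hmox1. It had 1216 and 2086 counts (444 and 722 CPM), and its ratio of 1.54 (1.44 to 1.66) exceeded that of 93.6% of the genes tested. The ratios of Hmox1 and Slc40a1 could not be separated by counting error (Hmox1 over Slc40a1 1.10, 0.982 to 1.24). Slc40a1 occupies chromosome 1 from 45908068 to 45926523 on the minus strand. Ceruloplasmin, a ferroxidase that lets exported iron bind to transferrin, is encoded by Cp, and Cp was higher too, with 78 and 148 counts and a ratio of 1.71 (1.29 to 2.28). The related ferroxidase gene Heph had 6 and 9 counts, too few for a statement.

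Ferritin heavy chain mRNA was by far the most abundant of the list. Fth1 had 6249 and 8649 counts (2284 and 2992 CPM), and its ratio of 1.246 (1.21 to 1.29) was modest but the most precise of all 10. In absolute terms Fth1 made up 46.2% of the summed CPM difference of the list, and together with Slc40a1 and Hmox1 77.8%. The light chain gene Ftl1 had 691 and 1081 counts (253 and 374 CPM) and a ratio of 1.41 (1.28 to 1.55). There were 9.04 Fth1 counts per Ftl1 count in ctrl and 8.001 in APAP, a factor of 0.885 (0.799 to 0.980), so that the light chain was favoured slightly. These numbers use the Ftl1 row alone. With the gene copies described below there were fewer heavy chain counts per light chain count (6250 against 1465 in ctrl, 8656 against 2322 in APAP). Slc40a1, which carries the same hairpin, was 1.24-fold higher relative to Fth1 (1.15 to 1.34).

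Light chain counts are less certain than heavy chain counts because of near-identical gene copies. The row Ftl1-ps1, a copy on chromosome 13 (74406409 to 74407346), held 728 and 1189 counts, more than Ftl1 itself, with a ratio of 1.47 (1.34 to 1.61). Its transcript is 96.6% identical to that of Ftl1 over 938 aligned bases, and reads of one may have been counted for the other. Smaller copies were Ftl1-ps2 (23 and 27 counts) and Ftl2-ps (23 and 25 counts). With all 4 light chain rows added up there were 1465 and 2322 counts and a ratio of 1.43 (1.34 to 1.52), close to that of Ftl1 alone. For the heavy chain the one further row, Fth-ps3, added 1 and 7 counts. By the annotation, exons of a gene on the opposite strand and of a miRNA gene overlap Ftl1, and neither has a row in the table.

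Spic, a relative of PU.1 that red pulp macrophages need for their development and that haem induces, had 231 and 344 counts (84.4 and 119 CPM) and a ratio of 1.34 (1.13 to 1.59). Cd163, the receptor for complexes of haemoglobin with haptoglobin, was the rarest transcript of the list, with 58 and 89 counts (21.2 and 30.8 CPM). Its ratio of 1.38 resembled that of Spic, but at this depth the interval ran from 0.981 to 1.96 and included 1. With library totals in place of DESeq2 factors it was 1.03 to 2.06. Slc11a1, also named Nramp1, encodes a transporter that moves iron and manganese out of the phagosome and of which C57BL/6 mice are known to carry an inactive allele. It had 233 and 357 counts (85.2 and 123 CPM), a ratio of 1.38 (1.17 to 1.63). Slc11a1 is also expressed by neutrophils, whose markers were higher as well: all 11 listed neutrophil genes had a ratio above 1, with a summed level of 1438 CPM in ctrl and 3654 CPM in APAP (ratio 2.42, 2.33 to 2.51). Their part in the Slc11a1 difference was not tested.

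Transferrin, the plasma carrier of iron, is made mainly by hepatocytes. Trf had 921 and 1213 counts in these spleens (337 and 420 CPM). Its ratio was 1.19 (1.09 to 1.29). All 9 hepatocyte markers with at least 20 counts had a ratio below 1, with a sum of 341 CPM in ctrl and 203 CPM in APAP (ratio 0.565, 0.508 to 0.627). Alb, the albumin gene and the most abundant of them, had 423 and 272 counts. The part of hepatocyte RNA in the Trf value was not tested. Tfrc, the transferrin receptor gene, had 146 and 205 counts and a ratio of 1.26 (1.02 to 1.57), an interval that included 1 with TMM factors (0.997 to 1.54). In the annotation an overlapping gene model on the same strand shares exon sequence with Trf, and it has no row in the table.

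**Figure D2:**
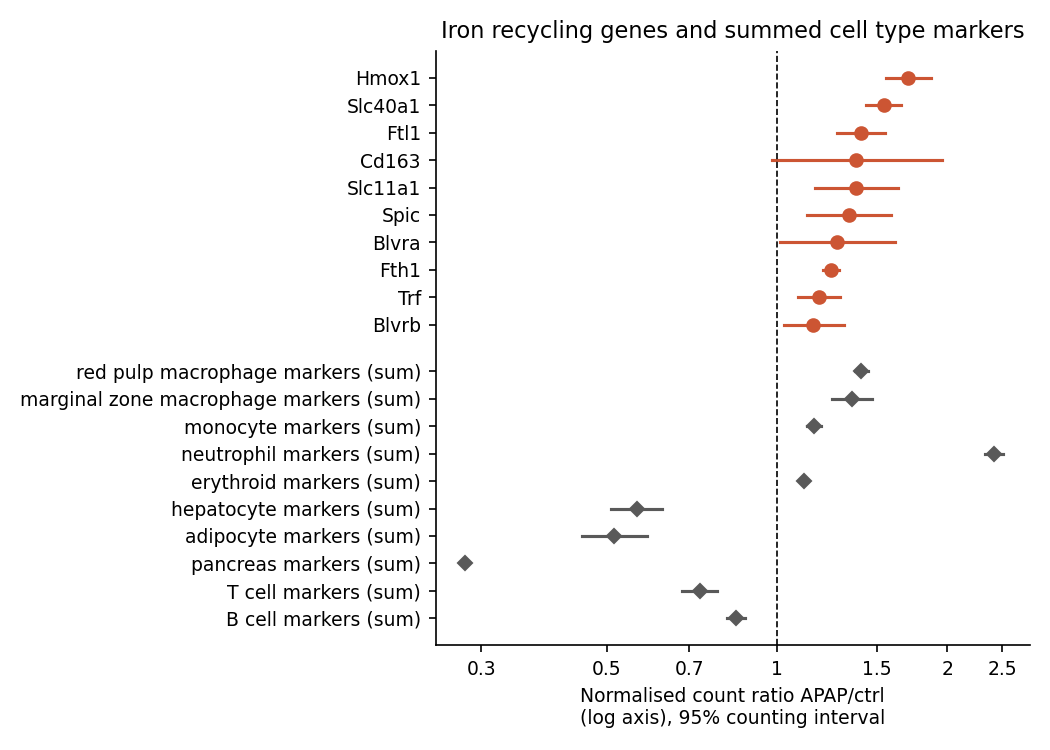
Normalised count ratio APAP/ctrl on a log axis with 95% counting intervals, for each of the 10 genes (circles) and for the summed counts of marker lists (diamonds). The 10 genes lie between 1.16 and 1.70, near the red pulp macrophage sum at 1.41, while pancreas markers lie lowest at 0.281.

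Ranked by level, the order was nearly the same in both libraries. In ctrl it ran from Fth1 over Slc40a1, Trf, Hmox1, Ftl1, Blvrb, Slc11a1, Spic and Blvra to Cd163, on the CPM scale, which for 3′ ends is not divided by gene length. Within that order Hmox1 and Ftl1 (709 and 691 counts) and Slc11a1 and Spic (233 and 231 counts) did not differ beyond counting error. The place of Ftl1 is that of its own row. With the near-identical copies added, the light chain had 1465 counts in ctrl and 2322 in APAP, more than Slc40a1 (1216 and 2086). In APAP the only change of rank was that Hmox1 moved ahead of Trf, with 1.11 Hmox1 counts per Trf count (1.02 to 1.198). Slc11a1 and Spic again did not differ detectably. Among the 45 pairs of genes, the ratios APAP/ctrl differed with an interval that excluded 1 in 13 pairs. Hmox1 was part of 7 of these, being higher than every gene except Slc40a1 and Cd163. Only 3 of the 13 involved neither Hmox1 nor Slc40a1, namely those of Ftl1 with Fth1, Trf and Blvrb.

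Most of these genes are expressed by red pulp macrophages, and markers of these cells were higher as well. All 15 listed markers, none of which belongs to the 10 genes, had an interval above 1, against 11.5% of the genes with at least 100 counts. Their ratios ran from 1.13 to 1.65, with a median of 1.44. The marker list was chosen with earlier results of these data known, so that this count is no independent support. Vcam1, an adhesion molecule typical of these macrophages, had 1320 and 2072 counts (1.41, 1.32 to 1.51), and C1qc, a complement gene of tissue macrophages, had 873 and 1553 (1.60, 1.47 to 1.74). Marginal zone macrophage markers had a summed ratio of 1.36 (1.251 to 1.47), with Marco at 1.502 (1.36 to 1.66) and Nr1h3 at 0.896 (0.742 to 1.08).

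Each gene was therefore set against the sum of the 15 red pulp macrophage markers (8116 counts in ctrl, 12716 in APAP), a comparison that is free of the scaling of the libraries. Relative to that sum Hmox1 was 1.21-fold higher in APAP (1.10 to 1.33) and Slc40a1 1.09-fold (1.01 to 1.18). For 3 genes the relative value was below 1, namely 0.883 for Fth1 (0.846 to 0.922), 0.841 for Trf (0.767 to 0.921) and 0.823 for Blvrb (0.726 to 0.933). The other 5 genes could not be told from the markers. Of these, Ftl1 was closest to 1 (0.998, 0.903 to 1.10) and Cd163 had the widest interval (0.979, 0.695 to 1.39). Vcam1 and Adgre1 were also used as the only markers. Both are among the 15, and Vcam1 held 1320 of their 1568 counts in ctrl and 2072 of 2404 in APAP. This smaller set is thus no independent check. With it, Hmox1 was at 1.24 (1.10 to 1.38) and Slc40a1 at 1.12 (1.02 to 1.23). The intervals of Fth1, Trf and Blvrb lay below 1, and Ftl1 and Cd163 were at 1.02 (0.908 to 1.15) and 1.001 (0.706 to 1.43). Single markers spread more widely than these intervals: Hmox1 had a higher ratio than all 15 of them, whereas Slc40a1 was exceeded by 3, and the ratio of Fth1 was above that of 4 markers and those of Trf and Blvrb above that of 1. By ratio alone, the side of 1 on which a gene lies thus depends on the marker it is set against, except for Hmox1. The interval of Hmox1 (1.56 to 1.87) overlapped that of Fcna, the marker with the highest ratio (1.65, 1.51 to 1.81). No interval against a single marker was computed. A marker sum from 1 pool per group carries no error between mice.

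**Figure D3:**
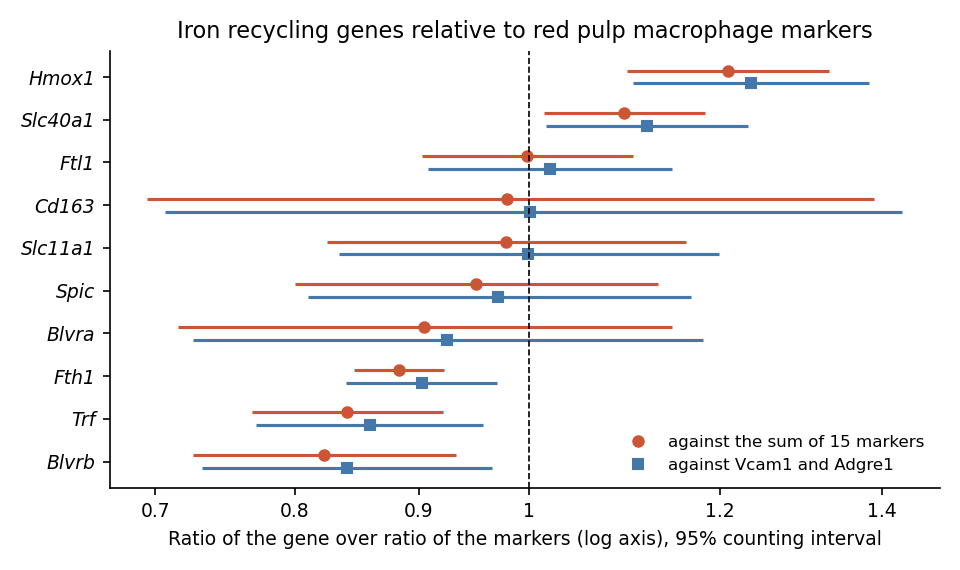
Ratio APAP/ctrl of each gene divided by that of summed red pulp macrophage markers, on a log axis with 95% counting intervals. Circles use all 15 markers and squares use Vcam1 and Adgre1 alone, which are among the 15. Hmox1 and Slc40a1 lie above 1 with both, and Fth1, Trf and Blvrb below.

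The rest of the haem and iron pathway was less uniform. Of 50 further genes in 11 lists by role, 47 were in the table and 40 had at least 20 counts. Among these 40, 10 had an interval above 1 and 2 below 1, against 9.13% and 6.57% of all genes, and the median ratio was 1.11 against 1.02. At least 2-fold higher were 2 of the 40 and at least 2-fold lower 1, against 1.39% and 1.68% of all genes. Of the 5 genes of haemoglobin and haem uptake, 3 had an interval above 1, 1 below, and 1, the haem carrier gene Slc46a1, included 1 (13 and 15 counts, ratio 1.04, 0.461 to 2.37). Lrp1, whose product takes up haem bound to haemopexin, had 291 and 501 counts (1.55, 1.34 to 1.80), and Slc48a1, which encodes the exporter of haem from the phagolysosome, had 351 and 486 (1.246, 1.08 to 1.43). Hp, the haptoglobin gene, had 84 and 178 (1.91, 1.46 to 2.503). Hpx, the haemopexin gene, was lower with 59 and 26 counts and a ratio of 0.397 (0.240 to 0.639). Hp is expressed by neutrophils and hepatocytes and Hpx mainly by hepatocytes, whose summed marker levels are given above, and their part in both values was not tested.

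The 2 iron-binding proteins of neutrophil granules had the largest ratios of the pathway, with 85 and 335 counts for Ltf, the lactoferrin gene (3.55, 2.79 to 4.56), and 89 and 286 for Lcn2, the siderophore-binding lipocalin gene (2.89, 2.27 to 3.71). The neutrophil markers S100a8 (2.46, 2.32 to 2.60) and S100a9 (2.32, 2.18 to 2.46) were higher as well, and the interval of Ltf lay above both of theirs. The part of neutrophil RNA in the Ltf and Lcn2 values was not tested. Of the hepcidin axis, Hfe, which encodes a partner of the transferrin receptors, had 157 and 274 counts (1.57, 1.29 to 1.92). Hepcidin itself, the hormone that removes ferroportin from the cell surface, was hardly covered (Hamp 12 and 13 counts, Hamp2 10 and 7). Its inducer genes Bmp2 and Bmp6 had 45 and 32 (0.640, 0.394 to 1.03) and 15 and 9 counts. Fbxl5, the gene of the iron sensor that marks an iron regulatory protein for degradation, was lower with 153 and 130 counts (0.765, 0.601 to 0.972), but with library totals its interval reached 1.02 and included 1. The iron regulatory protein genes Aco1 (87 and 120 counts, ratio 1.24, 0.934 to 1.66) and Ireb2 (168 and 177 counts, ratio 0.948, 0.763 to 1.18) had intervals that included 1. In the remaining lists the intervals of Pcbp1, an iron chaperone gene (1.11, 1.004 to 1.22, but 0.984 to 1.199 with TMM factors), and Slc25a37, the mitochondrial iron importer gene of erythroid cells (1.19, 1.06 to 1.34), lay above 1, and that of the haem exporter gene Flvcr1 did not (1.11, 0.806 to 1.53).

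**Figure D4:**
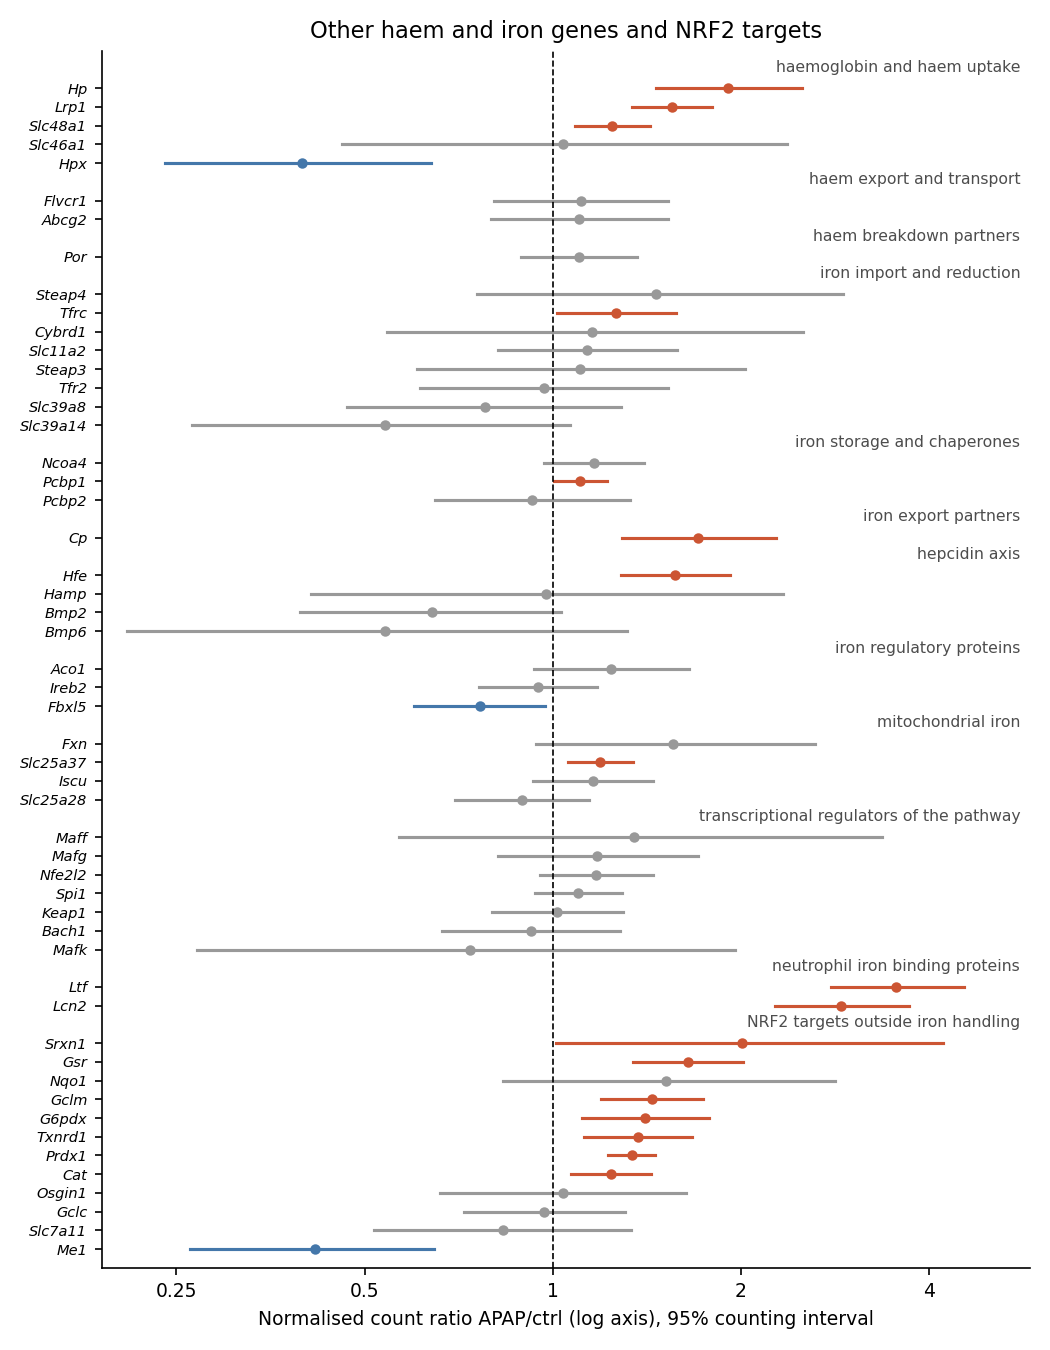
Normalised count ratio APAP/ctrl on a log axis with 95% counting intervals for the other haem and iron genes with at least 20 counts, grouped by role, and for NRF2 targets. Intervals above 1 and below 1 are in separate colours and those that include 1 in grey; Ltf and Lcn2 lie highest and Hpx and Me1 lowest.

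Hmox1, Fth1, Ftl1 and Slc40a1 are known targets of NRF2, the transcription factor of the oxidative stress response, and of its antagonist BACH1, which haem inactivates. For the mRNA of these regulators the intervals included 1. Nfe2l2, the NRF2 gene, had 167 and 218 counts (1.17, 0.956 to 1.45, but 1.01 to 1.52 with library totals), Bach1 had 77 and 79 (0.923, 0.666 to 1.28), and none of the 7 listed regulators had an interval that excluded 1, Spi1, the PU.1 gene, included (1.10, 0.936 to 1.29). Of 12 NRF2 targets outside iron handling, 7 had an interval above 1 and 1 below, against 9.13% and 6.57% of all genes, and the median ratio was 1.35 against 1.02. Among the 7 were the peroxiredoxin gene Prdx1 with 868 and 1291 counts (1.34, 1.23 to 1.46), the catalase gene Cat with 316 and 435 (1.24, 1.07 to 1.44) and Gclm, a subunit gene of glutathione synthesis, with 186 and 298 (1.44, 1.197 to 1.74). The intervals of Nqo1 (1.52, 0.833 to 2.83), Osgin1 (1.04, 0.661 to 1.64), Gclc (0.969, 0.721 to 1.30) and Slc7a11 (0.833, 0.518 to 1.34) included 1. Below 1 lay the malic enzyme gene Me1 with 67 and 31 counts (0.416, 0.263 to 0.646), which adipocytes express at high level. Adipocyte markers were lower too (228 and 124 CPM in sum, ratio 0.516, 0.451 to 0.588), all 5 with at least 20 counts below 1, and their part in the Me1 value was not tested. Summed markers of red pulp macrophages (ratio 1.41) and neutrophils (2.42) were higher, and the part of such cells in the 7 higher targets was not tested either. Nor was NRF2 activity tested. The NRF2 list, too, was chosen with earlier results of these data known.

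Promoter sequences (RefSeq, GRCm38.p6, 250 bases before to 50 bases after the start of the gene) were matched by symbol for 7 of the 10 genes, with 9 promoters in all. Hmox1, Slc40a1 and Trf were not searched. The core of the antioxidant response element bound by NRF2, TGACNNNGC, was searched on both strands and occurred in 1 of the 7 genes, Blvra, and in 12.4% of all 32851 promoters. The PU box core GAGGAA, bound by PU.1 and its relatives, occurred in 1 of the 7, Slc11a1, and in 28.3% of all. Both matches are shown with their flanks, in capitals and on the strand of the gene, where the element of Blvra reads on the opposite strand. They lie on chromosome 2 (127070598 to 127070626) and on chromosome 1 (74375041 to 74375066).
Blvra: cacgggaattGCTCGGTCAaggctccgcc
Slc11a1: gtatccaggaGAGGAAcgaaggtcaa
Such a match describes the letters in this window, and more distant regulatory sequence was not searched.

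Erythroid transcripts, which reflect the red cells and precursors in the tissue, differed little. Their sum had a ratio of 1.11 (1.11 to 1.12), with Hbb-bs at 58578 and 73397 counts (1.13, 1.12 to 1.14) and Hba-a1 at 32289 and 39269 (1.09, 1.08 to 1.11). Monocyte markers had a summed ratio of 1.16 (1.13 to 1.19), of which Lyz2 (6130 and 7836 counts, ratio 1.15, 1.11 to 1.19) supplied the most counts, followed by Plac8 at 1.24 (1.15 to 1.34). The 8 monocyte markers ranged from 0.842 to 1.70, with 5 intervals above 1 and 3 that included 1. T cell markers (0.730, 0.680 to 0.784) and B cell markers (0.846, 0.817 to 0.877) were lower. The parts of these cell types in the values of the 10 genes were not tested.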

How the data were processed

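Per the labels and the methods, splenic RNA was isolated with trizol, treated with DNase I and pooled within each group, and libraries were prepared with the MACE-kit v.2. Globin RNA was not depleted. The authors removed duplicates by unique molecular identifiers, trimmed with cutadapt, clipped poly(A), mapped to mm10 and counted with HTSeq. Sources used here name neither the aligner nor the annotation nor the strand setting. The raw counts deposited by the authors were used for all results. The column the authors head as TPM equals the count divided by the library total and is therefore CPM. The signal column deposited by the authors was found to be the count divided by a DESeq2 size factor (0.949 for ctrl, 1.05 for APAP) and is empty for 3049 genes. The 3 columns deposited by the authors as means over both libraries, of which the mean raw count was treated as a score, were not used.

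Size factors were taken from DESeq2 1.42.0, TMM and upper quartile factors from edgeR 4.0.16 (R 4.3.3). Ratios and intervals were computed in Python 3.11.15 with scipy 1.17.1. The exact 95% interval of a ratio was derived from the share of its counts in APAP (Clopper-Pearson), and that of a double ratio from the conditional odds ratio. Intervals cover counting error only. A count of 0 allows up to 3 counts (1.10 CPM in ctrl, 1.04 CPM in APAP). A count of at least 20 over both libraries was required except for the 10 genes, all of which passed. The 10 genes, the lists and the alternatives were chosen with earlier results of these data known. Named were all 10 genes and, from each other list, up to 3 genes whose interval excluded 1 or the gene with the most counts. From the marker lists at most the 2 genes with the most counts were named, and from some lists none. Adgre1, Fcna, Hpx, Hmox2, Ugt1a1, Heph, Hamp, Hamp2, Bmp2, Bmp6, Aco1 and Ireb2 were named after their values were seen. So were Slc46a1, Nfe2l2, Bach1, Nqo1, Osgin1, Gclc, Slc7a11, Me1, Ncoa4 and Srxn1. With 2 libraries a pattern is a single ratio, and genes of similar pattern were not sought.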

Additional observations from a re-analysis of the deposited data

How the results depend on the processing

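Each group was 1 pool, so that no alternative can show variation between mice. No paired analysis was possible because ctrl and APAP were 1 library each. Another scaling adds between -0.03 and 0.09 to every log2 ratio, and the 10 ratios then ranged from 1.14 to 1.81. All stayed within their counting interval except Fth1, at 1.31 with library totals and 1.32 when the totals left out haemoglobin and immunoglobulin genes. An interval above 1 was found for 9 of the 10 genes, for 10 with both kinds of totals and with totals without pancreas markers, for 8 with TMM factors or the upper quartile (Blvra then included 1) and for 7 with 99% intervals. The genes of the further pathway with an interval below 1 fell from 2 to 1 with either kind of totals and with at least 100 counts, a minimum chosen after seeing the data, and those with an interval above 1 went from 10 to 8 with TMM factors or the upper quartile (Tfrc and Pcbp1 lost, and Srxn1 among the NRF2 targets) and to 12 with either kind of totals (Ncoa4 and Nfe2l2 gained). Of all genes with at least 20 counts, 1180 had an interval above 1 and 850 below. These became 1806 and 560 with library totals, and 1984 and 514 when haemoglobin and immunoglobulin genes were left out of the totals; the cause was not tested. The 915 genes that were also at least 25% higher became 1390 and 1502 under these scalings. The genes at least 2-fold higher (180) and lower (217) became 67 and 114 with at least 50 counts and 26 and 66 with at least 100, by construction. Setting counts of 0 to 1 altered none of the 10 ratios.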
